A study of Mus musculus with 6 samples.

Results

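The genes of the AP-1 and Egr transcription factor families were examined for E2F1 binding in NIH/3T3 cells, an immortalised line of mouse fibroblasts. The set holds 10 of the 21900 protein-coding genes of the annotation: Fos, Fosb, Fosl1, Fosl2, Jun, Junb and Jund, which encode subunits of AP-1, and Egr1, Egr2 and Egr3. A peak was assigned to a gene when it lay inside the gene's GRCm38 span or within 1000 bp of either end. Of the 16291 peaks in the 4 deposited lists, 24 were assigned to these genes, 12 in each E2F1 library.

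Chromatin was immunoprecipitated for E2F1 and sequenced (ChIP-seq) in cells with a stably integrated, doxycycline-inducible E2F1 construct and in control cells with an empty vector (EV), 2 libraries of each. Cells of both constructs were held in medium with 0.25% serum for 48 hours and then received doxycycline for 12 hours, so the EV cells shared the starvation and the drug. The construct's promoter sequence and whether each line is a single clone are not given in the sources used here. Nor is it given whether the libraries of a construct came from separate cultures. The p-value given later therefore compares libraries only, and these may be technical replicates. The lists held 7836 and 8027 peaks in E2F1 replicates 1 and 2, and 70 and 358 in EV replicates 1 and 2. Library totals were not used here, and the lowest local background in a list, 1.85, 1.86, 2.20 and 1.18 reads in the same order, stood in for depth. Peak lists hold no expression, so fibroblast identity could not be checked against marker genes.

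AP-1 is a dimer of basic leucine zipper proteins, of a Jun protein with a Fos protein or of Jun proteins with each other, that binds short palindromic sites. Egr proteins bind GC-rich sites through zinc fingers. In fibroblasts most of these genes are immediate early genes: serum starvation silences them, and serum or growth factors switch them on within minutes through the Ras and MAP kinase cascade, serum response factor and its Elk partners. E2F factors act later in the return to the cell cycle, at genes needed for DNA replication.

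Promoter sequences, from 250 bases before to 50 bases after a start, were matched by symbol in the RefSeq table of GRCm38.p6 for 7 of the 10 genes, in 11 windows because Egr2 had 5. Peaks of both E2F1 libraries overlapped 4 of these 11 windows, those of Fos, Fosb, Fosl2 and Jun, against 21.3% of all 32851 windows in the table. The 5 windows of Egr2 were not overlapped. The 4 sequences are shown because they are the member promoters on which peaks fell. Each is written 5′ to 3′ in the direction of transcription, and capitals mark the E2F-like letters found on either strand: the 6-letter core GGCGGG, the related core GGCGCC and the related core GCGCGC, and the 8-letter forms TTTCGCGC, TTTGGCGC, TTTCCCGC and TTTGCCGC, which can overlap the cores. The windows lie at chr12:85473640-85473939 on the plus strand for Fos, chr7:19309996-19310295 on the minus strand for Fosb, chr5:32136222-32136521 on the plus strand for Fosl2 and chr4:95052173-95052472 on the minus strand for Jun.
Fos: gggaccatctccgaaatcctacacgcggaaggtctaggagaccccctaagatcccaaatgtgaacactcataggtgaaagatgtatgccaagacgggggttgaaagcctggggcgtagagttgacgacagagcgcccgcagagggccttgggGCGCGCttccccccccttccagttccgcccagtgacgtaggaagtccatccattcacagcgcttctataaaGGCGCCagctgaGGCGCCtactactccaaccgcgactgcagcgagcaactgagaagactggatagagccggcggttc
Fosb: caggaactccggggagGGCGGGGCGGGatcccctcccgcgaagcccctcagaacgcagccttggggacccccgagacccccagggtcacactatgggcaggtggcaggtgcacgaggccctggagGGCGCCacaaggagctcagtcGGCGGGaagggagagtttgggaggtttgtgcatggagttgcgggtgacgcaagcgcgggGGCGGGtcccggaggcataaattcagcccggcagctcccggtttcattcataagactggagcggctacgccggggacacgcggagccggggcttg
Fosl2: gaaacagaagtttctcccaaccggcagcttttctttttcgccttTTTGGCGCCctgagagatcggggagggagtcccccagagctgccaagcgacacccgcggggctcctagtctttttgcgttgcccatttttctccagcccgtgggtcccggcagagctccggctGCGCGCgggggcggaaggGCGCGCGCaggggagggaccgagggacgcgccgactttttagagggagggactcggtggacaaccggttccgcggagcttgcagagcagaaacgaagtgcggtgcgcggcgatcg
Jun: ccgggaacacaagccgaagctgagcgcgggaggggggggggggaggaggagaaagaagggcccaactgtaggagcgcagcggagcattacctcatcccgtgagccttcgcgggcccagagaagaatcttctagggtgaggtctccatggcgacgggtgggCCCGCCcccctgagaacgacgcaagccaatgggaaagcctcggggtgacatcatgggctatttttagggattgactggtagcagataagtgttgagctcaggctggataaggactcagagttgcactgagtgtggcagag

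The Fosl2 promoter was the only member window with a longer E2F form, TTTGGCGC, which starts at base 45 of the sequence and overlaps a GGCGCC core at base 48. Any of the 4 longer forms was present in 2.26% of all windows, in 5.89% of the 6993 windows overlapped in both E2F1 libraries and in 1.09% of the 24327 overlapped in neither. A 6-letter core was present in 6 of the 11 member windows (54.5%), from Fos, Fosb, Fosl2, Jun and Egr2, against 41.1% of all windows and 88.3% of those overlapped in both libraries. In the Fos window the peak summit fell at base 33 in E2F1 replicate 1 and at base 128 in replicate 2, and GCGCGC starts at base 153. In the Fosb window the summits fell at bases 97 and 76, and the nearest core after them, GGCGCC, starts at base 126. The Fosl2 window lay wholly inside the peak of both libraries, with the summits further upstream. The Jun window was covered over 11 bases in replicate 1 and over all 300 in replicate 2. These matches describe the letters in the windows and do not mark binding sites.

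The other promoter motifs searched on both strands were those of the immediate early response and the CCAAT box. The AP-1 site (TGACTCA or TGAGTCA, in 5.20% of all windows), the cyclic AMP response element TGACGTCA (1.79%) and the Egr site GCGTGGGCG (0.612%) were in 0 of the 7 genes' windows. Only these exact letters were searched, so variant sites and sites outside the windows are not covered. The CArG box, the site of serum response factor, was found in 4 of the 11 windows, all of Egr2 and 3 of them overlapping, against 1.63% of all windows. A CCAAT box was found in 5 of the 11, of Jun, Junb and Egr2, against 37.4%. Those of Egr2 are the same 3 overlapping windows, which hold the same CCAAT box. The GC content of the 11 member windows ran from 46.7% at Jund to 72.0% at the first window of Egr2. The median was 52.7% over all windows and 65.7% over those overlapped in both E2F1 libraries.

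Both E2F1 libraries listed peaks at 9 of the 10 genes, and the same 9 in each: all 7 AP-1 genes, and Egr1 and Egr2 of the 3 Egr genes. By the same rule 36.9% of protein-coding genes had a peak in E2F1 replicate 1, 38.2% in replicate 2 and 34.4% in both (7537 genes, Wilson 95% interval 33.8 to 35.0). EV replicates 1 and 2 listed peaks at 0 of the 10 genes. That is near the background, since only 0.0365% and 0.406% of protein-coding genes had a peak in those lists. On average 9 ± 0 of the genes had a peak per E2F1 library (SD, n = 2) and 0 ± 0 per EV library (SD, n = 2). The constructs did not overlap in this count. A two-sided exact permutation test of it returned p = 0.33, the lowest value open to 2 libraries against 2, so no such difference can pass 0.05. The spans of the 10 genes, 1840 to 21369 bp with a median of 4523.5 bp, were short beside the median of 17146 bp over protein-coding genes.

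An absent peak in EV has a limit set by the lists' threshold, a p-value of 1e-10. At the lowest background of EV replicate 1 a pileup of 17 reads, a fold enrichment of 5.63, is the least that is listed, and in EV replicate 2 a pileup of 13 reads, a fold of 6.43. The strongest peaks of 7 of the 9 genes exceeded both folds in both E2F1 libraries. Those of Fosl1 and Egr2 did not. If the EV background at these genes was at its lowest, a site as strong as in the E2F1 cells could be missing from an EV list. That background is not known, and at a higher one the least fold listed is lower. The EV peak nearest to any of the genes lay 1937330 bp away, from Fosl1 in EV replicate 2.

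Fold enrichment, the authors' ratio of the read pileup at the summit to the local background there, is given for the strongest peak of each gene. The median peak had a fold of 9.19 in E2F1 replicate 1 and 11.3 in replicate 2. At the member genes it ran from 5.76 to 50.1. Each fold is also placed by its percentile in its own list, where 100 is the highest fold, because the lists differ in level.

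**Figure D1:**
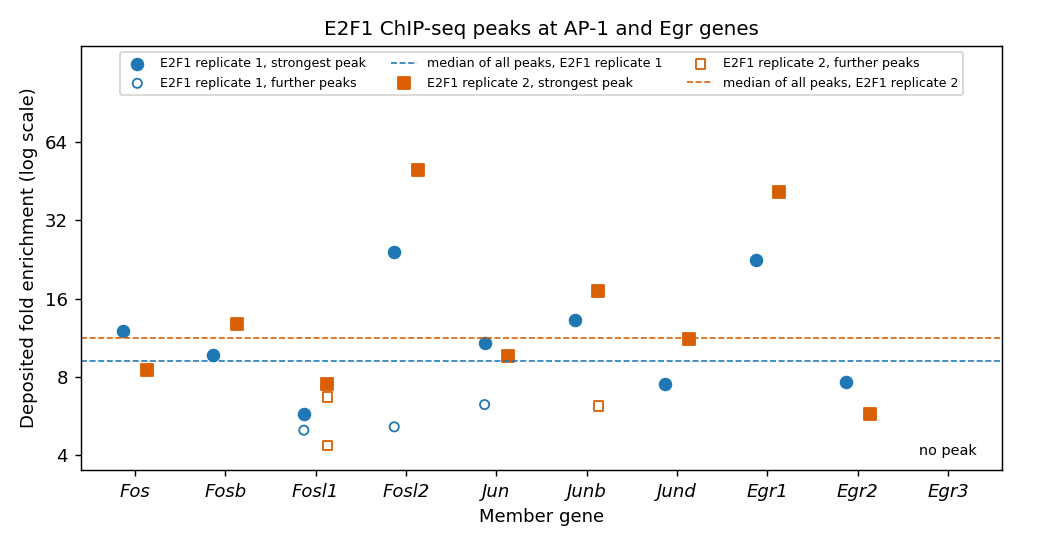
Deposited fold enrichment (log axis) of every E2F1 peak assigned to the 10 genes, with circles for replicate 1, squares for replicate 2, filled for the strongest peak of a gene and open for its further peaks. Dashed lines are the medians of all peaks, 9.19 and 11.3. Fosl2 and Egr1 stand above 20 in both libraries, and Egr3 has no peak.

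Among the Fos family, Fosl2 had the strongest site in both libraries. Fosl2, which encodes a Fos-related protein without the strong transactivation domain of Fos, had a peak on chromosome 5 from 32132713 to 32138105 in E2F1 replicate 1, with a fold of 24.1 (rank 530 of 7836, percentile 93.2). In replicate 2 it ran from 32132910 to 32137430, with a fold of 50.1 (rank 191 of 8027, percentile 97.6). The summits were 12 bp apart, 896 and 884 bp upstream of the annotated start. At 5393 and 4521 bp these peaks were among the widest of all: 6 peaks of replicate 1 and 8 of replicate 2 were at least as wide, the Fosl2 peak included. A second peak inside the gene, of fold 5.14, was listed in replicate 1 alone.

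Fos encodes the prototype partner of Jun. Its peak covered the start on chromosome 12, from 85472121 to 85474572 in replicate 1 and from 85473152 to 85474519 in replicate 2. The folds were 12.0 and 8.53, and the percentiles, 66.7 and 34.2, lay on opposite sides of the lists' medians. The summits were 218 and 123 bp upstream of the start. Replicate 2 listed a separate peak of fold 7.04 upstream, from 85472038 to 85472584, in a stretch that the wider peak of replicate 1 covers. It lay 1306 bp from the gene, just beyond the window.

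Fosb, a close relative of Fos, had a narrow peak at its start on chromosome 7, of 561 bp in replicate 1 and 597 bp in replicate 2. The folds were 9.73 and 12.8 (percentiles 54.0 and 56.5), and the summits lay 81 and 102 bp beyond the upper end of the span, where this minus-strand gene begins in the gene table. The promoter table places the start 73 bp further in, and from there the summits were 154 and 175 bp upstream. This was the most evenly placed site of the 9 together with that of Junb.

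Fosl1, the other Fos-related gene and itself a target of AP-1, had the lowest mean percentile of the 9 genes with a peak. At the lower end of its span on chromosome 19, replicate 1 had a peak from 5447597 to 5449209 with a fold of 5.76 (percentile 15.6). Over the same stretch replicate 2 had separate peaks with folds of 6.69 (percentile 20.0) and 4.36 (percentile 1.46). The upper end of the span, at 5455938, overlaps Ccdc85b, a neighbouring gene. Another peak lay wholly beyond that end, from 5456171 in replicate 1 and from 5456855 in replicate 2. It was within 1000 bp of Ccdc85b as well, and had folds of 4.99 and 7.54. In replicate 2 it was the strongest assigned to Fosl1 (percentile 27.0). By position this upper peak lay outside Fosl1, and which gene it acts on was not tested.

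In the Jun family the summit of the strongest peak lay upstream of the gene at Jun, beyond its far end at Junb and inside it at Jund. Jun, whose protein can form AP-1 with itself, had its summit 492 bp upstream of the start on chromosome 4 in replicate 1 and 488 bp in replicate 2. The folds were 10.8 and 9.61 (percentiles 60.4 and 40.5). Replicate 1 listed a second, broader peak of 2196 bp over the gene with a fold of 6.26, while replicate 2 joined the region from 95051463 to 95053240 in a single peak. The long non-coding gene Junos begins beside the Jun start, and these peaks lay within 1000 bp of it as well.

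Junb, whose product is a weaker activator than Jun at many sites, had the third strongest site. On chromosome 8 it spanned 84975671 to 84978644 in replicate 1 and 84975963 to 84976899 in replicate 2. The folds were 13.3 and 17.1 (percentiles 72.4 and 70.0). The summits, 24 bp apart, lay 2305 and 2281 bp downstream of the start of this 1840 bp gene and so beyond its far end. Another peak, 1136 bp upstream of the Junb start in replicate 1 and 1045 bp in replicate 2, just outside the window, had folds of 14.7 and 12.4. In replicate 1 it was stronger than the peak that the window took in. The promoter window of Junb itself was overlapped in neither library. The peak of replicate 1 also came within 1000 bp of Prdx2, a peroxiredoxin gene.

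Jund encodes the Jun protein that is abundant in resting fibroblasts. Its peak covered most of the gene on chromosome 8, from 70698809 to 70700990 in replicate 1 and from 70698251 to 70700857 in replicate 2. The folds were 7.50 and 11.2 (percentiles 35.9 and 49.1), both below the list medians, while the widths of 2182 and 2607 bp stood at percentiles 94.2 and 99.1. The summits were 1393 and 1198 bp downstream of the annotated start, and the promoter window was not overlapped. The far end of the peak lay within 1000 bp of Iqcn, the adjacent gene.

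The 3 Egr genes differed widely among themselves. Egr1, the serum-induced zinc finger factor best known in fibroblasts, had a peak on chromosome 18 from 34859688 to 34861527 in replicate 1 with a fold of 22.6 (rank 642, percentile 91.8). In replicate 2 it ran from 34860172 to 34861663 with a fold of 41.0 (rank 368, percentile 95.4). The summits were 13 bp apart, 549 and 562 bp outside the lower end of the span. Egr2, which directs hindbrain patterning and myelination, had a small peak inside its span on chromosome 10, of 638 and 324 bp, with folds of 7.63 and 5.76 (percentiles 37.1 and 10.5). It ended 96 bp in replicate 1 and 154 bp in replicate 2 before the nearest of the promoter windows that hold the CArG box, and it also lay within 1000 bp of the non-coding gene Gm32255. At Egr3, an Egr1 relative needed for muscle spindles, no peak met the rule. The nearest lay on chromosome 14 beyond the lower end of the span, 1334 bp away in replicate 1 and 1843 bp in replicate 2, with a fold of 14.9 in each (percentiles 77.6 and 63.7). With a window of 2500 bp all 10 genes had a peak in both E2F1 libraries, against 35.5% of protein-coding genes. In EV 0 had a peak, where even at 1000 bp only 0.0365% (replicate 1) and 0.406% (replicate 2) of protein-coding genes had one.

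Ordered by the mean percentile of the strongest peak in the E2F1 lists, the genes ran Fosl2 (95.4), Egr1 (93.6), Junb (71.2), Fosb (55.2), Fos and Jun (50.5 each), Jund (42.5), Egr2 (23.8) and Fosl1 (21.3). Fosl2 lay above Egr1 in both libraries (93.2 against 91.8 in replicate 1, 97.6 against 95.4 in replicate 2). The ranges of their values over the replicates overlapped, and their order was not tested. Junb overlapped neither Egr1 above nor Fosb below. Fosb lay above Jund in both libraries, while the values of Fos and Jun overlapped each other and those of Fosb and Jund. Egr2 overlapped Fos, Jund and Fosl1. The median percentile of the 9 genes was 60.4 in replicate 1 and 49.1 in replicate 2. Over all protein-coding genes with a peak the same measure was 54.1 and 53.2. As a group the genes therefore sat near the middle of the lists, with Fosl2 and Egr1 far above it. At peaks with a score of at least 312, the median score of all E2F1 peaks, 5 of the 10 genes had a peak in both libraries (Fosb, Fosl2, Jun, Junb and Egr1), against 16.9% of protein-coding genes.

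The read pileup behind each fold was worked out from its deposited fold together with its p-value. At Fosl2 the summit held 140 reads over a background of 4.84 in replicate 1 and 188 reads over 2.77 in replicate 2. At Egr1 it held 100 reads over 3.47 and 167 reads over 3.10. The other 7 genes had 35 to 89 reads. The exact Poisson 95% intervals of the pileup, which cover counting error only, overlapped between replicates at 8 of the 9 genes. The exception was Egr1, at 81.4 to 122 in replicate 1 and 143 to 194 in replicate 2. At Fosl1 the intervals belong to different peaks, with summits 9271 bp apart, so their overlap does not compare the replicates at a shared site. At Fosl2 the pileup intervals, 118 to 165 and 162 to 217, overlapped, while replicate 2 had the higher fold and the lower background. Local background at the strongest peaks was 1.44 to 3.89 times the lowest of the list.

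**Figure D2:**
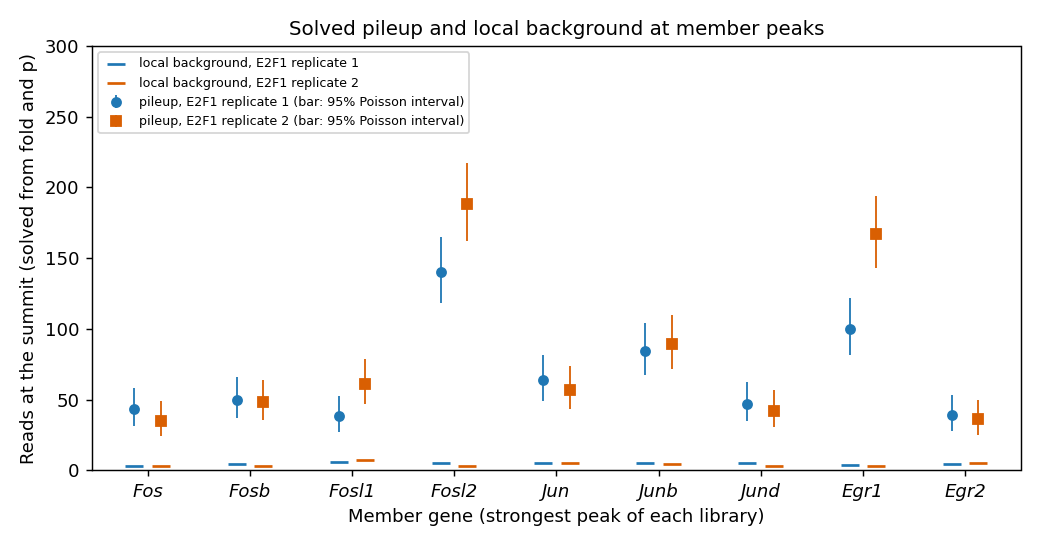
Reads at the summit of the strongest peak of each gene (points, with exact Poisson 95% intervals) and the local background there (dashes), for E2F1 replicates 1 (blue) and 2 (orange). Fosl2 reaches 140 and 188 reads and Egr1 100 and 167, while the other genes lie between 35 and 89. For Fosl1 the strongest peak of replicate 2 is the one beyond its upper end, also within 1000 bp of Ccdc85b.

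Fold was higher in replicate 2 at 6 of the 9 genes and in replicate 1 at 3 (Fos, Jun and Egr2). With the strongest peak of each library, whichever it was, the median log2 ratio of replicate 2 to replicate 1 was 0.39. With overlapping peaks only, a pairing added after the data were examined that changes Fosl1 to 0.22, the ratio ran from -0.49 at Fos to 1.05 at Fosl2, with a median of 0.37. Over the 7070 overlapping peak pairs of the lists the median was 0.34 and the middle range -0.08 to 0.80 (25th to 75th percentile), so Fos, Jun and Egr2 fell below that range and Fosl2 and Egr1 above it. The strongest peaks overlapped between replicates at 8 of the 9 genes, with summits 4 to 195 bp apart. Fosl1, where different peaks were strongest, was the exception.

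The widest peak of each gene had a median of 2182 bp over the 9 genes in replicate 1 and 1368 bp in replicate 2, against 987 and 852 bp over all protein-coding genes with a peak. It exceeded the list median, 938 and 814 bp, at 7 of the 9 genes in replicate 1 and at 6 in replicate 2. The background was 54.0% of protein-coding genes with a peak in each library. Over so few genes neither count was taken as a departure from that share, and no test was made. At Jun in replicate 1 the widest peak, of 2196 bp, was the weaker of those assigned. Fosb and Egr2 stayed below the list median in both libraries, and Fosl1 in replicate 2.

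Counted by the same rule were AP-1 and Egr partners, Ras and MAP kinases, serum response factor with its cofactors, and other early genes. The background was the 34.4% of protein-coding genes with a peak in both E2F1 libraries. Of 69 such genes, each counted once, 50 had a peak in both libraries (72.5%), 3 in a single library and 16 in neither. In EV 0 of the 69 had a peak, which is near the background of 0.0365% and 0.406% of protein-coding genes in EV replicates 1 and 2. Among Ras and MAP kinase genes, a list not confined to the serum signal, 16 of 18 had a peak. Mapk8, a Jun kinase, was among them with folds of 32.3 and 29.7. Serum response factor and its cofactors had 5 of 6, led by Elk3 at 33.2 and 38.5 and Elk4 at 20.3 and 12.4. Other immediate early genes had 23 of 30, led by Klf4 at 23.8 and 24.4 and Klf10 at 15.6 and 30.8.

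Of 12 leucine zipper partners of AP-1, 4 had a peak in both libraries, a share of 33.3% that is near the background. They were led by Mafg, a small Maf protein, with folds of 16.9 and 27.7, and Jdp2, a repressor that dimerises with Jun, with 10.6 and 12.6. Of the 4 genes listed with Egr, 2 had a peak: Nab1 at 27.5 and 33.9 and Nab2 at 5.88 and 10.4, which encode corepressors of Egr proteins. The median over genes with a peak in both libraries, of each gene's mean fold, was 12.7 for the 69 genes and 11.8 for protein-coding genes in all.

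**Figure D3:**
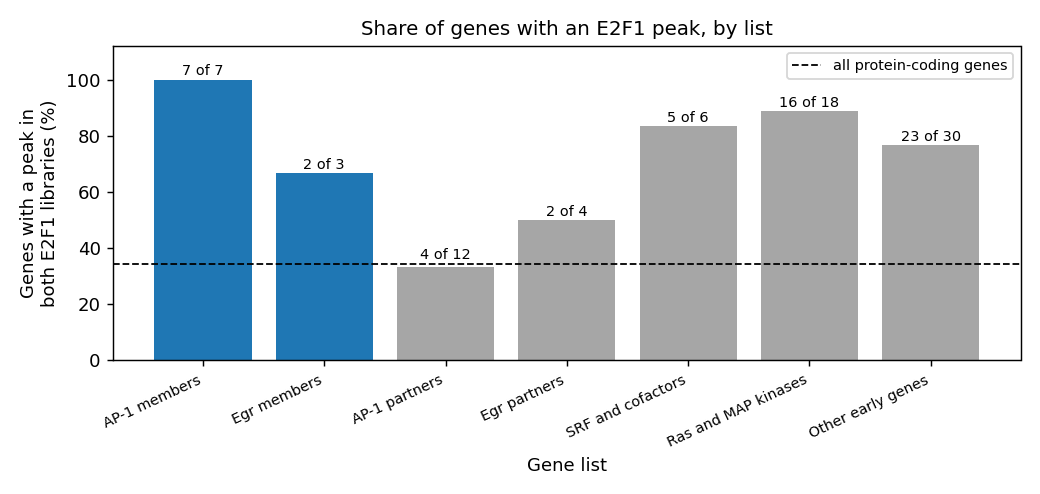
Share of genes in each list with a peak in both E2F1 libraries (bars from 0, with counts above them). Blue bars are the AP-1 and Egr genes, and grey bars are partners, signalling genes and other early genes. The dashed line is the 34.4% of all protein-coding genes, which 4 of 12 AP-1 partners (33.3%) do not exceed.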

How the data were processed

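E2F1 ChIP-seq peaks of 4 libraries were used, 1 list per library, grouped by sample title; the 2 EV input samples were not analysed here. Per the submitters' processing notes the tools included Trimmomatic, Bowtie2 and MACS2 and the build was mm10, the same assembly as GRCm38. The antibody, the control and the filter of each list are not given in the sources used here. The deposited score is a whole number close to 10 times the −log10 q-value. Fold enrichment, as deposited, is the ratio of pileup to local background at the summit. Each peak has a deposited −log10 of its p-value and of its q-value, and no −log10 p was below 10, so weaker sites are missing. The last deposited column gives the summit's offset.

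Positions were converted to count from 1 and joined to RefSeq gene spans of GRCm38.p6, for all 21900 protein-coding genes, with Python 3.11.15, pandas 2.3.3 and SciPy 1.17.1. The pileup was the whole number that met fold = (pileup + 1) / (background + 1) and the upper Poisson tail within 5% of the step between neighbouring pileups. It was found for at least 99.99% of peaks with −log10 p below 300, and the code was checked on simulated data. The number of genes with a peak was compared by an exact permutation test; all else is description. The genes, lists and tests were chosen with earlier results of these data known. Named were the 10 genes with every peak assigned to them, genes sharing those peaks, and in each further list the 2 genes with the highest mean fold, of which 1 is not reported here. Alternatives were other windows, a score of at least 312, summits in place of intervals, single libraries, other rank measures and the replicate block.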

Additional observations from a re-analysis of the deposited data

How the results depend on the processing

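Of 42 alternatives computed over 7 results, 38 kept the value within 1.5 times, or within the spread between replicates or genes, and 4 did not. A score of at least 312 lowered the genes of the set with a peak in both E2F1 libraries from 9 to 5. Protein-coding genes fell from 34.4% to 16.9%, and the partner, signalling and other early genes from 50 to 27. Weaker peaks are removed by construction. The 6-letter cores raised the member promoters with an E2F-like motif from 1 to 5 of 7. The difference between E2F1 and EV was 9 genes in each of the 4 comparisons without a library and ran from 6.5 to 10 under the others. With the replicate block it was 9, and the exact test that flips the sign of each pair returned p = 0.5, the lowest that 2 pairs allow. With 0 in both EV lists these counts cannot show whether replicate numbers pair the samples. The median fold percentile ran from 49.1 to 60.4 across its alternatives. Because the lists end at a p-value of 1e-10, the counts cover sites of a fold near 6 or more at the lowest background, and library totals were not used here.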

Other observations

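Further E2F1 peaks lay within 50 kb of the genes but outside the 1000 bp window, 21 in replicate 1, of which 20 were also overlapped in replicate 2, and 23 in replicate 2, of which 21 were overlapped in replicate 1. Neither EV list, of 70 and 358 peaks in all, had any. Fosl2 and Jun had 0 such peaks in either E2F1 library, so their peaks stood alone over that distance. Junb had 6 and 5, and Fosb 5 and 6. Such counts were not made for other protein-coding genes, so whether any of these is unusual cannot be told.

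At Egr1 a second strong peak lay 21756 bp beyond the upper end of the span in replicate 1 and 22052 bp in replicate 2, with folds of 24.5 and 27.9 (percentiles 93.5 and 87.7). The nearest protein-coding gene to it, Etf1, which encodes a translation release factor, was 14217 bp away in replicate 1. At Fos a weaker peak followed the gene, 8778 and 8748 bp from its far end, with folds of 8.14 and 6.72, and Fos was the nearest protein-coding gene. Near Egr2 the stronger site belonged to the position of Ado, a neighbouring thiol dioxygenase gene: its peak, 5522 and 5427 bp from Egr2, had folds of 20.2 and 44.5, against 7.63 and 5.76 for the peak inside Egr2. These peaks were chosen after their values were seen, and no test was made.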
